A study of Mus musculus with 12 samples.

Results

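Transcripts of 42 genes of NF-kB, cytokine and Toll-like receptor signalling were examined in hippocampi of mice exposed to a mixture of Gulf War chemicals. The members were listed by symbol, and each symbol was found once among the 41743 genes of the deposited table. RNA-seq had been run on hippocampi of male C57Bl/6 mice aged 12 weeks, in a toxicant and a control group. Toxicant mice had received daily subcutaneous injections on weekdays for 2 weeks of 2.5 mg/kg pyridostigmine bromide (a reversible cholinesterase inhibitor), 12.5 mg/kg chlorpyrifos (an organophosphate insecticide) and 7.5 mg/kg DEET (an insect repellent), and tissue was taken when the exposure ended. Control mice had received vehicle. The labels give 6 animals a group, but the columns of control 4 and control 5 held the same value in every gene. They were counted once, as control 4-5, which left 6 toxicant and 5 control libraries.

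NF-kB is a family of dimeric transcription factors held inactive in the cytoplasm by inhibitor proteins called IkB. Toll-like receptors and the receptors for TNF and interleukin-1 signal through adaptors to the IkB kinase (IKK) complex, which marks IkB for destruction and frees the dimers to enter the nucleus. Receptors of the interleukin-6 family act instead through JAK kinases and STAT3, and SOCS proteins damp that route. In brain, microglia, astrocytes and endothelial cells carry most of these receptors, and several NF-kB targets encode the pathway's own inhibitors, so that their transcripts are often read as a sign of pathway activity.

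Levels are RPKM, reads scaled to gene length and to depth, as deposited. The reads behind a library numbered 21.5 to 28.4 M in toxicant and 25.0 to 34.9 M in control samples, as recovered from the steps between low values. Control 2 stood apart. The percentage of its reads that lay on annotated genes, called the genic share here, was 78.4%, beside 76.8% to 83.8% in the toxicant libraries and 83.1% to 89.5% in the other controls. Control 2 was the lowest or highest control for 26 of the 33 members tested and for 75.8% of all genes tested, so results that rest on it are given with and without it. Markers of hippocampal neurons were present in every library, Neurod6 at 43.6 to 60.5 RPKM in toxicant and 58.0 to 72.6 RPKM in control samples. Transcripts of blood leukocytes summed to 0.352 to 0.588 RPKM over 15 markers in toxicant and 0.284 to 0.701 RPKM in control libraries, with the neutrophil gene Ly6g at 0 throughout.

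Promoters were read for the kB motif GGGNNTTTCC, a form of the site that NF-kB dimers bind, on both strands of the 250 bases before each start site in RefSeq (GRCm38.p6). Of the 33 members with a promoter in that table, 8 held the motif (24.2%), against 1.65% of 27025 genes. Ikbkb, Il34, Nfkb1, Nfkbiz, Relb, Socs2, Tgfb3, Tlr4 and Tlr7 had no entry. The matches are shown in capitals with 10 bases on either side, each on the strand that reads from the G run, because Nfkbia, Tnfaip3, Nfkb2 and Rel encode parts of the pathway itself and Csf1 is among the members described below. The search covered all members after the 7 genes of the feedback loop had been named for it.
Nfkbia, chr12:55492657-55492686, plus strand: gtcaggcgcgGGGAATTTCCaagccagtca
Tnfaip3, chr10:19015403-19015432, plus strand: ttgccaacagGGGGATTTCCgatggaaatt
Nfkb2, chr19:46304716-46304745, plus strand: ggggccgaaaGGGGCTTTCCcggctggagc
Nfkb2, second start site, chr19:46305695-46305724, plus strand: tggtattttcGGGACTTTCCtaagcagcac
Rel, chr11:23771041-23771070, plus strand: ggggagggggGGGGATTTCCcgctgcttac
Csf1, chr3:107760604-107760633, plus strand: ctggcccctaGGGACTTTCCctcaaggccc
Il6, chr5:30013060-30013089, plus strand: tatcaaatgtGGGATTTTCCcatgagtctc
Traf3, chr12:111166350-111166379, plus strand: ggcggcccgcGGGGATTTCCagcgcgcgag
Tlr3, chr8:45410572-45410601, minus strand: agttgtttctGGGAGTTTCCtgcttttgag
The match lay closest to the start site in Traf3, Nfkb2 and Tnfaip3, where its first base on the gene's strand was 10, 11 and 12 bases upstream, and farthest in the second Nfkb2 promoter, at 225 bases. The whole 250 bases before the start of Nfkbia are printed on the gene's own strand, since this was the member with the lowest log2 fold change.
Nfkbia, chr12:55492648-55492897, minus strand: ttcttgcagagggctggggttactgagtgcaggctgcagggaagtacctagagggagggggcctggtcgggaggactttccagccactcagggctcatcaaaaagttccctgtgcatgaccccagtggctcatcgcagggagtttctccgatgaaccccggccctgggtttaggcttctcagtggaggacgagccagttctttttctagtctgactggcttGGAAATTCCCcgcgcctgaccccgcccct
These are matches of letters, and binding was not measured.

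None of the 42 members passed the test across all genes, and the median member lay close to the median gene. The 33 members with a mean of at least 0.5 RPKM were tested with limma on log2(RPKM + 0.5), with p adjusted over the 13493 genes tested. At an adjusted p under 0.05, 0 members were called, as were 0% of all genes, and the smallest adjusted p of a member was 0.172 (Stat3). At an unadjusted p under 0.05, 9 members were lower in toxicant hippocampi (27.3% of 33, against 17.0% of all genes tested) and 1 was higher (3.03%, against 3.33%). The log2 fold change was under 0 for 27 of 33 members and for 70.0% of all genes, but for 15 members when libraries were rescaled by median ratio. The median over the members was -0.10, beside -0.11 over all genes, and 16 of 33 members lay below that all-gene median. Median-ratio scaling sets the median over all genes near 0 by design (here 0.00), and that over the members was then 0.01. Fold changes as deposited are to be read beside the all-gene median of -0.11. In whole tissue, fewer cells of a type and less RNA per cell cannot be told apart.

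The 10 members with an unadjusted p under 0.05 were Nfkbia, Stat3, Myd88, Csf1, Il33, Traf2, Tnfrsf1a, Rela and Il6st, all lower in toxicant libraries, and Socs2, which was higher. Under each of the 22 alternative settings 14 of the 33 members tested kept the sign of their log2 fold change, all 10 among them. The 10 were picked from the same data, and 11 of the settings only leave out 1 library, so a kept sign is not separate evidence. Sizes of the 10 moved: under median-ratio scaling the 9 lower members ran from -0.32 (Nfkbia) to -0.07 (Il6st), and Socs2 was at 0.26. With the genic share as a covariate Stat3 was at -0.20 and Socs2 at 0.10. Nfkbia and Stat3 had an unadjusted p under 0.05 in each of these settings, and Myd88 in all but the one with the genic share as a covariate. For no tested member did every toxicant library lie outside the control range, a pattern seen in 2.03% of all genes tested on the low side and 0.111% on the high side.

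**Figure D1:**
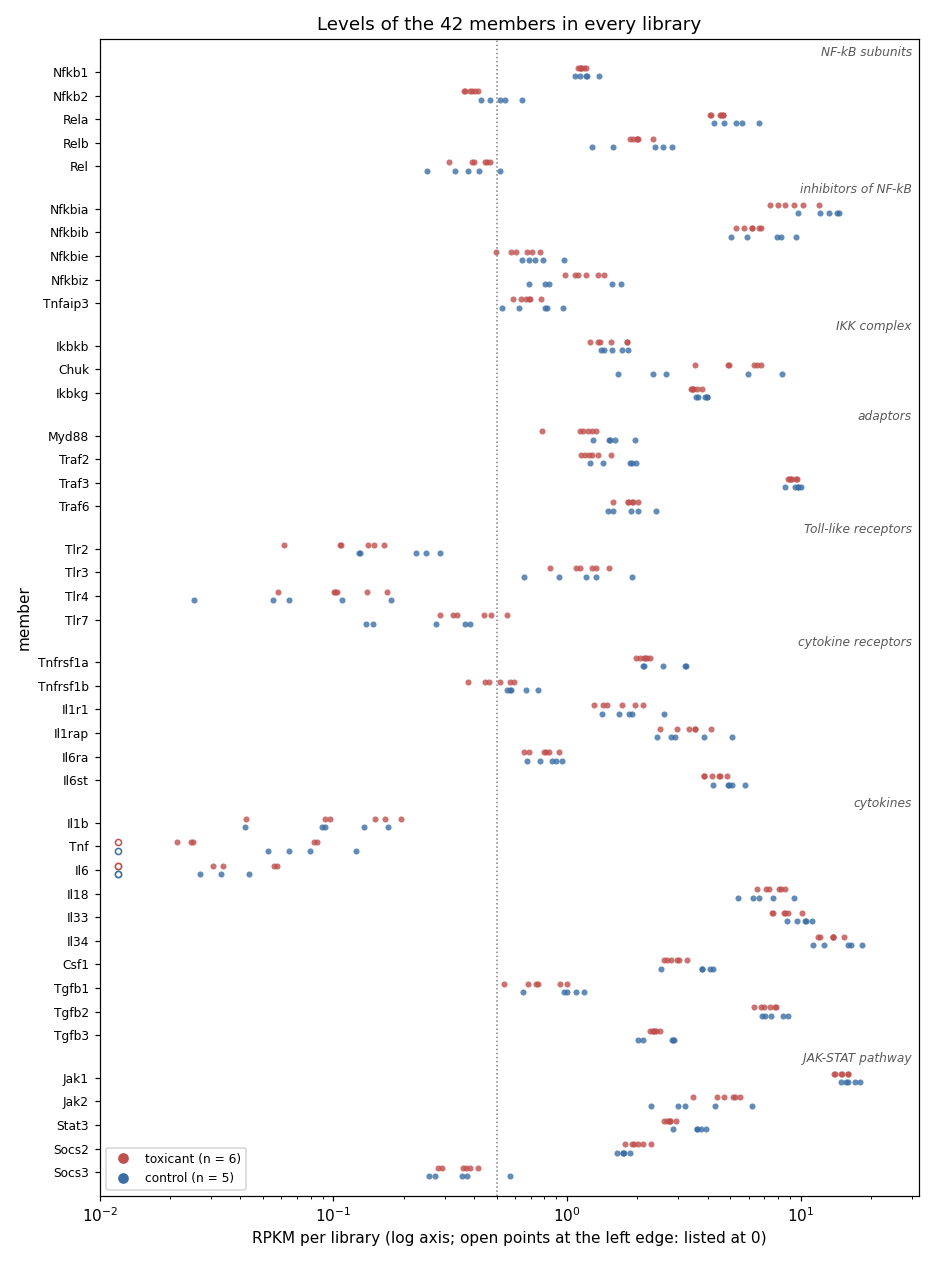
RPKM of the 42 members in 6 toxicant (red) and 5 control (blue) libraries on a log axis, by role, with the filter of 0.5 RPKM as a dotted line and values of 0 as open points at the left edge. Levels run from Jak1, at 13.9 to 16.0 RPKM in toxicant and 14.8 to 18.0 RPKM in control libraries, down to Il6, at no more than 0.0575 RPKM in toxicant and 0.0436 RPKM in control libraries.

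Among the NF-kB subunits, Rela was the most abundant and Rel and Nfkb2 the least. Rela encodes p65, which carries the transactivation domain of the classical dimer. Its RPKM ran from 4.11 to 4.65 in toxicant libraries with a median of 4.54, and was 6.62, 4.26, 5.64, 4.70 and 5.28 in controls 1, 2, 3, 4-5 and 6. The toxicant values lay together at the low end of a wide control range, below its lowest value in 2 of 6 libraries. The log2 fold change was -0.22 ± 0.10 (SE, limma adjusted p = 0.240). It was -0.14 without control 1 and -0.07 with the genic share as a covariate.

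Nfkb1 encodes p105, the precursor of the p50 partner of p65. It ran from 1.12 to 1.20 RPKM in toxicant libraries with a median of 1.15, and was 1.08, 1.21, 1.22, 1.38 and 1.13 RPKM in the 5 controls in the same order. The groups overlapped throughout (log2 fold change -0.04 ± 0.07, limma adjusted p = 0.706, and 0.05 under median-ratio scaling). Relb, the transactivating subunit of the alternative route, averaged 2.02 ± 0.159 RPKM in toxicant and 2.13 ± 0.665 RPKM in control libraries (SD, n = 6 and 5). Its sign turned with several settings, and its controls spread from 1.28 to 2.81 RPKM.

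Nfkb2 encodes p100, the precursor of p52 in the alternative route and itself an IkB-like inhibitor. It lay under the filter, at 0.363 to 0.415 RPKM in toxicant libraries with a median of 0.390, and at 0.639, 0.427, 0.542, 0.515 and 0.469 RPKM in the 5 controls. It was the single member of 42 with each of the 6 toxicant values under every control, and it was singled out after its values were seen. Among the genes past the filter, which leave out Nfkb2, 2.03% had that pattern. With no filter on low values its log2 fold change was -0.19 ± 0.06 (limma adjusted p = 0.320). It rested on 38 to 54 reads in toxicant and 60 to 83 reads in control libraries. Nfkb2 lies on chromosome 19 from 46304320 to 46312385 in GRCm38, and 18.1% of its exon length overlaps genes on the other strand, whose reads cannot be told apart here. Rel, which encodes the lymphoid subunit c-Rel, was at 0.412 ± 0.0582 RPKM in toxicant and 0.379 ± 0.0987 RPKM in control libraries (SD, n = 6 and 5).

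Of the 5 inhibitors, 4 had a log2 fold change under 0 (3 under median-ratio scaling), beside 70.0% of all genes tested. Below the all-gene median of -0.11 lay 3 of the 5, and Nfkbia had the lowest log2 fold change of any member. Nfkbia encodes IkB-alpha, which NF-kB induces and which ends the response by carrying the dimers out of the nucleus. It spans chromosome 12 from 55489410 to 55492647 on the minus strand in GRCm38. In toxicant libraries it ran from 7.43 to 12.1 RPKM with a median of 8.96, and in the 5 controls it was 14.4, 9.74, 12.2, 13.3 and 14.6 RPKM. Of the toxicant libraries 4 lay below the lowest control, which was control 2, and toxicant 5 was the highest of its group. Its log2 fold change was -0.45 ± 0.13 (limma adjusted p = 0.202) on an average of 482 reads. The estimate was -0.54 without control 2 and -0.30 with the genic share as a covariate.

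Tnfaip3 encodes A20, a ubiquitin-editing enzyme that NF-kB induces and that shuts off signalling from the TNF and Toll-like receptors. It ran from 0.587 to 0.773 RPKM in toxicant libraries with a median of 0.677, and was 0.958, 0.528, 0.821, 0.625 and 0.806 RPKM in the 5 controls. All toxicant values lay inside the control range (log2 fold change -0.08 ± 0.10, limma adjusted p = 0.583, and 0.0043 under median-ratio scaling).

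The other inhibitors overlapped their controls, and 3 of the 6 toxicant values of Nfkbie were under every control. Nfkbib, encoding IkB-beta, averaged 6.13 ± 0.557 RPKM in toxicant and 7.34 ± 1.83 RPKM in control libraries (SD, n = 6 and 5). Ccer2 and Sirt2 on the other strand overlap 16.4% of the exon length of Nfkbib. Nfkbie, encoding IkB-epsilon, averaged 0.639 ± 0.0968 and 0.765 ± 0.129 RPKM in toxicant and control libraries. Nfkbiz, a nuclear IkB protein that tunes which targets are transcribed, averaged 1.20 ± 0.175 RPKM in toxicant and 1.12 ± 0.476 RPKM in control libraries. Their adjusted p values in limma were 0.323, 0.316 and 0.630.

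**Figure D2:**
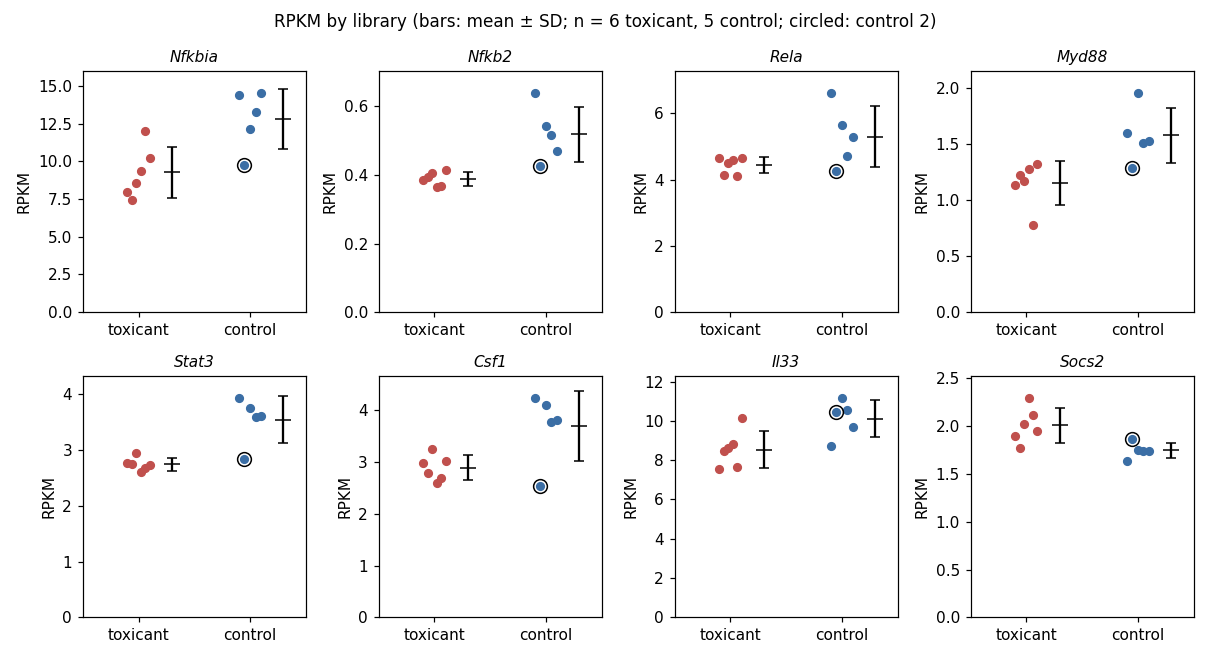
RPKM of 8 members in each library, with mean and SD as bars and control 2 circled. Control 2 lies at 2.84 RPKM for Stat3 and 2.52 RPKM for Csf1, near the toxicant libraries, and at 10.5 RPKM for Il33, among the other controls.

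In the IKK complex, Chuk varied more between controls than between toxicant libraries, and it is described in full, like Jak2 below, after its values were seen. Chuk encodes the kinase IKK-alpha, which also drives the alternative route. It averaged 5.50 ± 1.25 RPKM in toxicant libraries, ranging from 3.55 to 6.79, and was 1.65, 8.29, 2.33, 5.94 and 2.67 RPKM in controls 1, 2, 3, 4-5 and 6. Controls 1, 3 and 6 lay below every toxicant library and control 2 above every one. For Chuk the log2 fold change was 0.54 ± 0.32 (limma adjusted p = 0.295), and -0.18 with the genic share as a covariate. Ikbkb, the kinase IKK-beta of the classical route, averaged 1.52 ± 0.236 RPKM in toxicant and 1.59 ± 0.184 RPKM in control libraries. Ikbkg, the scaffold NEMO that links the kinases to upstream ubiquitin chains, averaged 3.51 ± 0.147 RPKM in toxicant and 3.82 ± 0.195 RPKM in control libraries, and 4 of the 6 toxicant values were under every control (limma adjusted p = 0.286).

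Of the 4 adaptors, Myd88 and Traf2 were lower at an unadjusted p under 0.05, as were 17.0% of all genes tested, and Traf3 and Traf6 were not. Myd88 is the adaptor shared by the interleukin-1 receptor and most Toll-like receptors. It ran from 0.782 to 1.33 RPKM in toxicant libraries with a median of 1.20, and was 1.60, 1.29, 1.96, 1.51 and 1.53 RPKM in the 5 controls. Of the toxicant libraries 5 lay below the lowest control, again control 2. Its log2 fold change was -0.33 ± 0.11 (limma adjusted p = 0.207). Myd88 lies on chromosome 9 from 119335934 to 119341411, where 11.3% of its exon length overlaps Acaa1a on the other strand.

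Traf2, a ubiquitin ligase of the TNF receptor complex, ran from 1.15 to 1.55 RPKM in toxicant libraries with a median of 1.26, and was 1.97, 1.26, 1.85, 1.43 and 1.90 RPKM in the 5 controls. Toxicant values clustered with controls 2 and 4-5, below controls 1, 3 and 6 (log2 fold change -0.27 ± 0.10, limma adjusted p = 0.223). With the genic share as a covariate it was -0.08. Traf3, a brake on the alternative route, averaged 9.21 ± 0.331 RPKM in toxicant and 9.50 ± 0.535 RPKM in control libraries. Traf6, the ligase downstream of Myd88, averaged 1.84 ± 0.147 RPKM in toxicant and 1.87 ± 0.364 RPKM in control libraries.

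Toll-like receptor transcripts were scarce in both groups, and Tlr3 alone passed the filter. Tlr3, which senses double-stranded RNA in endosomes, averaged 1.20 ± 0.228 RPKM in toxicant and 1.20 ± 0.467 RPKM in control libraries (log2 fold change 0.03 ± 0.17, limma adjusted p = 0.902), and its sign turned when control 1, control 6 or toxicant 2 was left out. Tlr4, the receptor for bacterial lipopolysaccharide, ran from 0.0581 to 0.171 RPKM in toxicant libraries with a median of 0.103, and was 0.0254, 0.176, 0.0649, 0.0554 and 0.108 RPKM in the 5 controls. That is 8 to 21 reads in toxicant and 4 to 30 reads in control libraries, and the groups overlapped.

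Tlr2, the receptor for bacterial lipopeptides, averaged 0.122 ± 0.0375 RPKM in toxicant and 0.204 ± 0.0714 RPKM in control libraries, and 3 of the 6 toxicant values were under every control. Tlr7, a sensor of single-stranded RNA, averaged 0.403 ± 0.104 RPKM in toxicant and 0.263 ± 0.117 RPKM in control libraries, and 3 of 6 toxicant libraries lay above the highest control. The 2 genes differed in sign on few reads, at 5 to 12 toxicant and 11 to 30 control reads for Tlr2. For Tlr7 there were 25 to 56 toxicant and 15 to 46 control reads. With no filter on low values the log2 fold changes were -0.17 ± 0.07 for Tlr2 (limma adjusted p = 0.363) and 0.25 ± 0.11 for Tlr7 (limma adjusted p = 0.393).

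All 6 cytokine receptors had a log2 fold change under 0 as deposited, beside 70.0% of all genes tested, and 4 lay below the all-gene median of -0.11. Under median-ratio scaling 2 of the receptors, Il6ra and Il1rap, were above 0. Tnfrsf1a, the widely expressed TNF receptor that carries a death domain, ran from 1.97 to 2.26 RPKM in toxicant libraries with a median of 2.14, and was 3.20, 2.14, 3.25, 2.11 and 2.57 RPKM in the 5 controls. The toxicant values lay near those of controls 2 and 4-5 and below the other 3 (log2 fold change -0.25 ± 0.10, limma adjusted p = 0.232, and -0.10 with the genic share as a covariate). Tnfrsf1b, the second TNF receptor and in brain largely microglial, averaged 0.495 ± 0.0812 RPKM in toxicant and 0.625 ± 0.0824 RPKM in control libraries, and 4 of the 6 toxicant values were under every control (limma adjusted p = 0.262).

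Il6st encodes gp130, the signalling subunit shared by the interleukin-6 family. It ran from 3.87 to 4.86 RPKM in toxicant libraries with a median of 4.33, and was 5.11, 4.21, 5.78, 4.94 and 4.90 RPKM in the 5 controls. Every toxicant library lay below controls 1, 3, 4-5 and 6, and 3 lay below control 2 as well (log2 fold change -0.19 ± 0.09, limma adjusted p = 0.241, and -0.08 with the genic share as a covariate). Il6ra, its ligand-binding partner, averaged 0.784 ± 0.0987 RPKM in toxicant and 0.830 ± 0.110 RPKM in control libraries. Il1r1 and its accessory chain Il1rap, which together bind interleukin-1, had limma adjusted p values of 0.476 and 0.977. For Il1r1 the range was 1.30 to 2.11 RPKM in toxicant and 1.42 to 2.60 RPKM in control libraries. Il1rap ran from 2.50 to 4.15 RPKM in toxicant and from 2.44 to 5.10 RPKM in control libraries.

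The classical inflammatory cytokines were close to the limit of detection in both groups. Il1b, the interleukin-1 ligand made by activated microglia, ran from 0.0423 to 0.195 RPKM in toxicant libraries with a median of 0.124, and was 0.0926, 0.171, 0.0420, 0.0897 and 0.135 RPKM in the 5 controls, on 2 to 8 reads in toxicant and 2 to 10 reads in control libraries. Tnf ran from 0 to 0.0852 RPKM in toxicant libraries with a median of 0.0249, and was 0.0646, 0.0796, 0, 0.125 and 0.0525 RPKM in the 5 controls. Il6 ran from 0 to 0.0575 RPKM in toxicant libraries with a median of 0.0322, and was 0.0436, 0.0269, 0.0330, 0 and 0 RPKM in the 5 controls. Summed over libraries, Tnf had 9 toxicant and 16 control reads, and Il6 had 10 toxicant and 7 control reads. Differences in these 3 genes were not detectable at this depth, and their limma adjusted p values with no filter were 0.778, 0.620 and 0.746.

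Il34, a neuronal ligand of the microglial receptor Csf1r, was second only to Jak1 in level among the 42 members. It ran from 11.9 to 15.3 RPKM in toxicant libraries with a median of 13.8, and was 18.4, 11.4, 16.5, 12.7 and 16.0 RPKM in the 5 controls. All toxicant values lay inside the control range (log2 fold change -0.13 ± 0.12, limma adjusted p = 0.442).

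Csf1, the other ligand of Csf1r, ran from 2.60 to 3.26 RPKM in toxicant libraries with a median of 2.88, and was 4.23, 2.52, 4.10, 3.77 and 3.80 RPKM in the 5 controls. Every toxicant library lay below controls 1, 3, 4-5 and 6 and above control 2. The log2 fold change was -0.29 ± 0.11 (limma adjusted p = 0.223). Without control 2 it was -0.40 (limma adjusted p = 0.0228), in a fit that called 36.5% of all genes. With the genic share as a covariate it was -0.09. Without control 2 and with that covariate it was -0.27 (limma adjusted p = 0.740).

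Il33, a nuclear alarmin of astrocytes and oligodendrocytes, ran from 7.55 to 10.1 RPKM in toxicant libraries with a median of 8.55, and was 8.71, 10.5, 11.2, 10.6 and 9.67 RPKM in the 5 controls. Of the toxicant libraries 4 lay below the lowest control (log2 fold change -0.23 ± 0.09, limma adjusted p = 0.223). Leaving out control 2 gave -0.22 (limma adjusted p = 0.0755), adding the genic share gave -0.28, and median-ratio scaling gave -0.11. Il18, an interleukin-1 relative activated by the inflammasome, ran from 6.50 to 8.61 RPKM in toxicant libraries with a median of 7.71, and was 5.41, 9.39, 6.65, 7.63 and 6.26 RPKM in the 5 controls, so that the toxicant values lay inside the control range.

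Of the 3 transforming growth factor beta genes, Tgfb2 was the most abundant. It ran from 6.33 to 7.88 RPKM in toxicant libraries with a median of 7.21, and was 6.87, 7.06, 8.84, 8.42 and 7.45 RPKM in the 5 controls. The groups overlapped (log2 fold change -0.09 ± 0.09, limma adjusted p = 0.454, and 0.03 under median-ratio scaling). Tgfb1, the form that keeps microglia in their resting state, averaged 0.772 ± 0.170 RPKM in toxicant and 0.979 ± 0.204 RPKM in control libraries (limma adjusted p = 0.282). Tgfb3 averaged 2.37 ± 0.0772 RPKM in toxicant and 2.54 ± 0.431 RPKM in control libraries (limma adjusted p = 0.593), and 12.4% of its exon length overlaps genes on the other strand.

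In the JAK-STAT route, Stat3 had the smallest p of any member. Stat3 is the transcription factor that interleukin-6 family receptors activate, and in astrocytes it drives reactive gene expression. It lies on chromosome 11 from 100885098 to 100939540 in GRCm38. It ran from 2.60 to 2.94 RPKM in toxicant libraries with a median of 2.74, and was 3.93, 2.84, 3.75, 3.60 and 3.61 RPKM in the 5 controls. The 6 toxicant libraries lay within a narrow band below controls 1, 3, 4-5 and 6, and 5 of them lay below control 2. Its log2 fold change was -0.31 ± 0.08 (limma adjusted p = 0.172). Without control 2 it was -0.38 (limma adjusted p = 0.0228), in a fit that called 36.5% of all genes. With the genic share as a covariate it was -0.20 (limma adjusted p = 0.264). Without control 2 and with that covariate it was -0.32 (limma adjusted p = 0.740).

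The suppressors of this route were present at unlike levels. Socs2, which limits growth hormone signalling, ran from 1.77 to 2.29 RPKM in toxicant libraries with a median of 1.99, and was 1.64, 1.87, 1.75, 1.74 and 1.74 RPKM in the 5 controls. Of the toxicant libraries 5 lay above the highest control (log2 fold change 0.16 ± 0.07, limma adjusted p = 0.244), against 0.652% of all genes with at least 5 above. Socs3, the suppressor that STAT3 itself induces, lay under the filter. It ran from 0.281 to 0.415 RPKM in toxicant libraries with a median of 0.364, and was 0.256, 0.372, 0.568, 0.272 and 0.357 RPKM in the 5 controls, on 18 to 34 toxicant and 21 to 41 control reads. Its toxicant values lay inside the control range. Stat3 and Myd88 were the members tested with at least 5 toxicant libraries below the lowest control, a pattern of 5.79% of all genes.

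Of the 2 kinases, Jak1 was the most abundant member and Jak2 followed Chuk in its pattern. Jak1, a kinase of most cytokine receptors, averaged 15.0 ± 0.917 RPKM in toxicant and 16.3 ± 1.23 RPKM in control libraries (limma adjusted p = 0.313). Jak2, which serves the growth hormone and gp130 receptors among others, averaged 4.74 ± 0.738 RPKM in toxicant libraries. Its 5 controls were at 2.29, 6.22, 3.21, 4.31 and 2.99 RPKM, with controls 1, 3 and 6 below every toxicant library and control 2 above every one (log2 fold change 0.34 ± 0.19, limma adjusted p = 0.282).

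**Figure D3:**
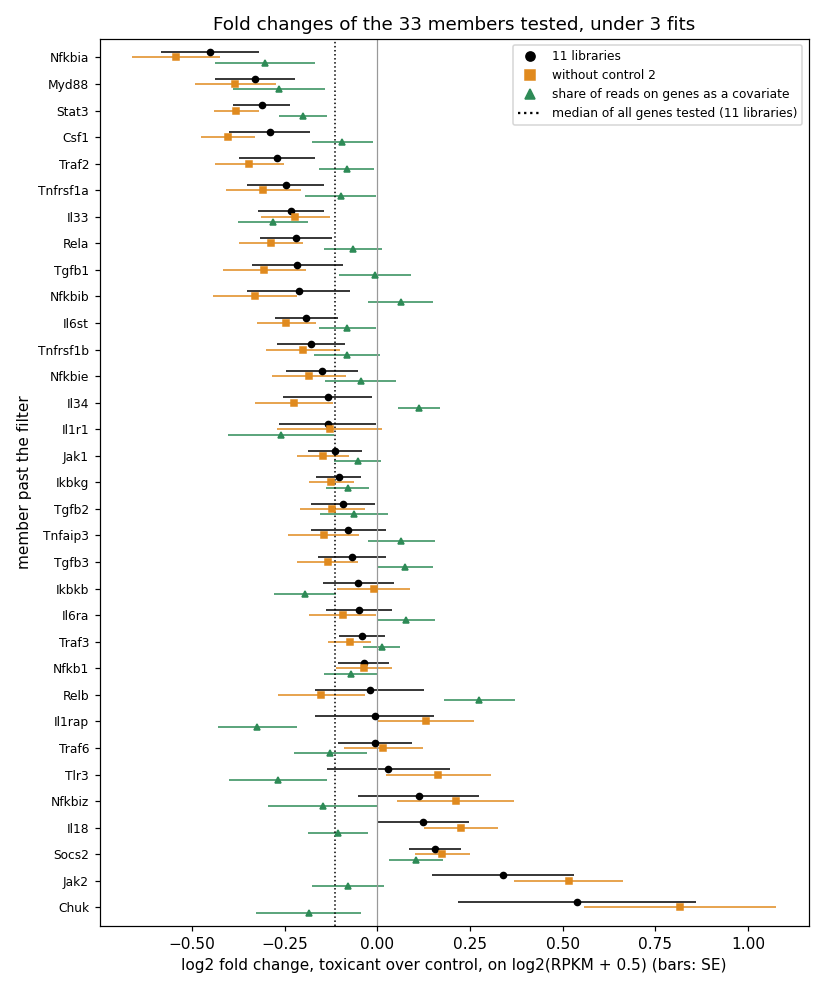
Log2 fold change of the 33 members tested, toxicant over control, with SE as bars, from all 11 libraries (black), without control 2 (orange) and with the genic share as a covariate (green); the dotted line is the median of all genes. Nfkbia is lowest in the first fit at -0.45, and Chuk moves from 0.54 to 0.82 without control 2 and to -0.18 with the covariate.

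Leaving out control 2 brought 12 members past the test. In that fit 10 members were lower at an adjusted p under 0.05 in limma, beside 28.0% of all genes, and 2 were higher, beside 8.56% of all genes. The 10 were Nfkbia, Stat3, Csf1, Myd88, Traf2, Rela, Tnfrsf1a, Il6st, Nfkbib and Tgfb1, and the 2 were Chuk and Jak2. In the same fit 4929 of 13493 genes were called, and leaving out any other library called 0 members. The control SD exceeded the toxicant SD for 31 of the 33 members and for 81.8% of all genes tested.

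The genic share was lower on average in toxicant libraries, with overlap between the groups. It was 80.8% ± 2.68 in toxicant and 85.4% ± 4.58 in control libraries (SD, n = 6 and 5). With this share as a covariate, 5 members were lower at an unadjusted p under 0.05 in limma (Nfkbia, Stat3, Il33, Ikbkb and Il1rap), beside 9.13% of all genes, and 1 was higher (Relb), beside 4.34%. The median of the members was then -0.08 and that of all genes -0.03. Of the 33 members, 12 turned sign, Chuk and Jak2 among them. Without control 2 and with the covariate, a fit chosen after seeing the data, 0 genes were called in limma. By log2 fold change the lowest members there were Nfkbia (-0.46), Il1r1 (-0.46), Myd88 (-0.39), Stat3 (-0.32), Il33 (-0.31), Csf1 (-0.27) and Ikbkb (-0.27). In that fit Il6st was at -0.13, Rela at -0.11, Tnfrsf1a at -0.11, Traf2 at -0.09, Tgfb1 at -0.05 and Nfkbib at 0.0087. Under median-ratio scaling 3 members were lower at an unadjusted p under 0.05 (Nfkbia, Stat3 and Myd88), beside 5.14% of all genes, and 1 was higher (Socs2), beside 8.19%. The part of this share in the members' differences was not tested.

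**Figure D4:**
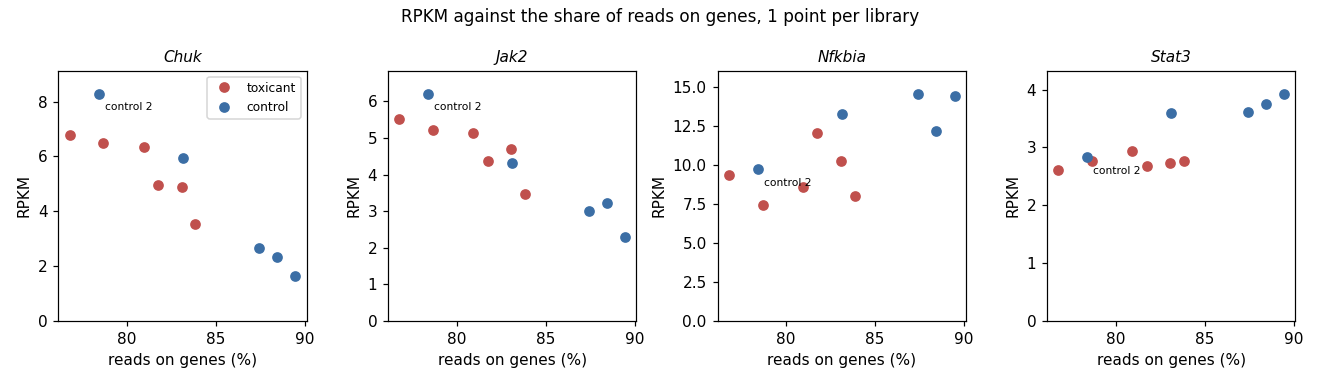
RPKM of Chuk, Jak2, Nfkbia and Stat3 against the percentage of a library's reads on annotated genes, 1 point per library, toxicant in red and control in blue. Chuk and Jak2 are highest in control 2, at 78.4% of reads on genes, and lowest in control 1, at 89.5%. Among controls, Stat3 is lowest in control 2, at 2.84 RPKM, and highest in control 1, at 3.93 RPKM. Its toxicant libraries lie between 2.60 and 2.94 RPKM from 76.8% to 83.8%.

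Markers of the cells that carry these receptors mostly had log2 fold changes under 0, as had 70.0% of all genes tested. The astrocyte and oligodendrocyte lists were at 75% each and the general neuronal list at 70%, near that share. The median of all genes was -0.11, and 0.00 under median-ratio scaling. All 17 microglial markers had a log2 fold change under 0 with a median of -0.25 (15, with a median of -0.14, under median-ratio scaling), and they summed to 149 to 187 RPKM in toxicant and 176 to 241 RPKM in control libraries, none being at 0. Of 13 endothelial markers 12 were under 0 with a median of -0.23 (11, with a median of -0.14, under median-ratio scaling), summing to 58.2 to 63.8 RPKM in toxicant and 67.4 to 80.5 RPKM in control libraries. Of 12 astrocyte markers 9 were under 0 with a median of -0.15 (8, with a median of -0.03, under median-ratio scaling), summing to 462 to 527 RPKM in toxicant and 498 to 558 RPKM in control libraries. Of 12 oligodendrocyte markers 9 were under 0 with a median of -0.38 (8, with a median of -0.25, under median-ratio scaling), summing to 488 to 675 RPKM in toxicant and 697 to 782 RPKM in control libraries. Of 10 general neuronal markers 7 were under 0 with a median of -0.15 (6, with a median of -0.01, under median-ratio scaling). Of 11 hippocampal neuronal markers 9 were under 0 with a median of -0.22 (7, with a median of -0.09, under median-ratio scaling). Under quantile normalization these counts were 17 microglial, 12 endothelial, 6 astrocyte, 9 oligodendrocyte, 2 general neuronal (median 0.03) and 8 hippocampal neuronal markers. With the genic share as a covariate they were 13 microglial (median -0.09), 12 endothelial (-0.31) and 9 astrocyte markers (-0.06). In that fit they were 12 oligodendrocyte (-0.32), 4 general neuronal (0.02) and 8 hippocampal neuronal markers (-0.10), beside an all-gene median of -0.03. Choroid plexus, which adjoins the hippocampus, differed widely between libraries of both groups, at a marker sum of 15.6 to 1820.4 RPKM in toxicant and 17.3 to 2907.8 RPKM in control libraries. The part of these cells in the members' values was not tested.

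The rest of the pathway, taken from lists of 211 other genes, gave no call either. Counts under 0 in these lists stand beside 70.0% of all genes tested, whose median was -0.11 (0.00 under median-ratio scaling). Among other NF-kB regulators 15 of 26 tested genes had a log2 fold change under 0 (median -0.04), and 9 of 26 under median-ratio scaling (median 0.06). The lowest p belonged to Peli2, a ubiquitin ligase of interleukin-1 signalling, at 1.82 ± 0.158 RPKM in toxicant and 2.26 ± 0.285 RPKM in control libraries, and to the kinase Irak1, at 7.11 ± 0.488 and 8.17 ± 0.327 RPKM in toxicant and control libraries. For other Toll-like and related innate receptors and adaptors it was 9 of 10 under either scaling. Their median was -0.20 as deposited and -0.08 under median-ratio scaling. With the genic share as a covariate 7 of 10 were under 0 (median -0.07). The smallest p values of this list belonged to the bacterial sensor Nod1 (log2 fold change -0.25 ± 0.08) and to Unc93b1, which ferries Toll-like receptors to endosomes (-0.25 ± 0.10).

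Other cytokines were mostly too low to test, with 5 of 30 past the filter and 4 of them under 0 with a median of -0.20 (2 of 5, with a median of 0.01, when the genic share was a covariate). Mif, a broadly expressed cytokine, had a log2 fold change of -0.25 ± 0.15 (0.06 with the genic share as a covariate), and Il16 averaged 3.57 ± 0.634 RPKM in toxicant and 4.14 ± 0.524 RPKM in control libraries. Il10 and Il17a were at 0 in every library. Among other cytokine receptors 15 of 19 were under 0 with a median of -0.19 (14, with a median of -0.10, under median-ratio scaling), with the interferon receptor subunit Ifnar2 at -0.34 ± 0.09 and Csf1r, the receptor of Il34 and Csf1, at -0.30 ± 0.10. For TGF-beta receptors and SMADs it was 17 of 22 with a median of -0.15 (12, with a median of -0.04, under median-ratio scaling), and the endothelial co-receptor Eng and the receptor Tgfbr2 had log2 fold changes of -0.37 ± 0.08 and -0.39 ± 0.09.

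Other JAK-STAT genes were under 0 in 15 of 21 cases with a median of -0.09 (10, with a median of 0.03, under median-ratio scaling), with Socs5, a suppressor of cytokine signalling, at -0.19 ± 0.07. Of 34 genes known as NF-kB targets, 22 lay under the filter and 12 were tested. The tested targets were under 0 in 10 cases with a median of -0.20 (9, with a median of -0.09, under median-ratio scaling). Of these, the AP-1 factor Junb, which is also induced by neuronal activity, averaged 20.3 ± 2.20 RPKM in toxicant and 31.0 ± 8.28 RPKM in control libraries, and the adhesion molecule Vcam1 averaged 1.56 ± 0.210 and 1.96 ± 0.346 RPKM in toxicant and control libraries. Over these 7 lists 0 genes passed the limma test at an adjusted p under 0.05, the smallest adjusted p being 0.153 for Eng. At an unadjusted p under 0.05 there were 28 lower genes of 115 tested (24.3%, beside 17.0% of all genes) and 4 higher (3.48%, beside 3.33%). Without control 2, 48 of these genes passed (41.7%, beside 36.5% of all genes).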

How the data were processed

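RNA-seq values of 12 hippocampal libraries were used. Per the labels' protocols, polyadenylated RNA was selected, libraries were made with a NEBNext Ultra kit and single reads were sequenced on an Illumina instrument. The authors deposited 1 table of RPKM values, per the file headers. Which aligner, counting program and build were used is not given in the sources used here. Reads were recovered by multiplying RPKM by exon length in GENCODE M21 (GRCm38), and 98.5% to 98.7% of values up to 1000 reads came out whole within 0.05 reads. The 33 members tested had a mean of 57.0 to 3036 reads per library. Strandedness is not stated.

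Genes averaging 0.5 RPKM or more were tested as log2(RPKM + 0.5) with limma 3.58.1 in R 4.3.3 (mean-variance trend, two-sided, Benjamini-Hochberg adjustment, threshold 0.05). The fit was tested on simulated data before use. Fold changes are toxicant over control and understate low genes. The 2 control columns with identical values count once. The samples are different mice, per the labels. The members and lists were chosen with earlier results of these data known. The genes named were the members with an unadjusted p under 0.05, 16 members fixed by name, the 2 genes with the smallest p of each pathway list, and defining cell markers. A gene that this rule names is not reported here. Promoters are RefSeq's (GRCm38.p6). Tools were Python 3.11.15 and pandas 2.3.3. Alternatives were other pseudocounts, filters and scalings, a replicate block, a covariate for the genic share, limma voom on recovered reads, all 12 libraries, and leaving out each library. The fit without control 2 and with that covariate was chosen after seeing the data.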

Additional observations from a re-analysis of the deposited data

Results flagged for a closer look

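In 84 combinations of a member and a group, 3 values stood far from the rest of their group, where chance would give about 4.2 (1 group in 20). Relb was at 2.33 RPKM in toxicant 1, above 1.87 to 2.01 RPKM in the other toxicant libraries. Myd88 was at 0.782 RPKM in toxicant 5, below 1.14 to 1.33 RPKM in the others. Its log2 fold change was -0.26 without that library and -0.33 with it. Csf1 was at 2.52 RPKM in control 2, below 3.77 to 4.23 RPKM in the other controls.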

How the results depend on the processing

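The count of members called was 0 under every alternative except without control 2. Leaving out each library in turn gave 0 to 12 members, 0 to 4929 genes in all and 0 to 48 genes of the pathway lists, each maximum being without control 2. The median log2 fold change of the members ran from -0.15 (without control 2) to -0.08 in those fits. It was 0.013 under median-ratio scaling. The number of genes called was 1 with a pseudocount of 0.1 and 10 with all 12 libraries as deposited, where the duplicated control counts as a second animal. Signs turned under median-ratio scaling for Nfkb1 (0.055), Relb (0.090), Tnfaip3 (0.0043), Ikbkb (0.048), Ikbkg (0.013), Traf3 (0.085), Traf6 (0.095), Il1rap (0.11), Il6ra (0.033), Tgfb2 (0.033), Tgfb3 (0.043) and Jak1 (0.014). They turned under quantile normalization for Relb (0.0066), Traf3 (0.058), Il1rap (0.015) and Jak1 (0.011), and with 12 libraries for Relb (0.029). They turned with the genic share as a covariate for Relb (0.27), Nfkbib (0.063), Nfkbiz (-0.15), Tnfaip3 (0.064), Chuk (-0.18), Traf3 (0.012), Tlr3 (-0.27), Il6ra (0.079), Il18 (-0.11), Il34 (0.11), Tgfb3 (0.075) and Jak2 (-0.079). Without control 2 and with that covariate they turned for Relb (0.19), Nfkbib (0.0087), Nfkbiz (-0.14), Tnfaip3 (0.0059), Chuk (-0.18), Tlr3 (-0.17), Il6ra (0.11), Il18 (-0.042), Il34 (0.13), Tgfb3 (0.027) and Jak2 (-0.00083). In leave-one-out fits signs turned for Relb (-0.15 to 0.072), Traf6 (-0.065 to 0.069), Tlr3 (-0.10 to 0.16) and Il1rap (-0.10 to 0.13). The cause was not tested.

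The samples share replicate numbers by label alone. Deviations of same-numbered libraries correlated at 0.62, 0.28, -0.30, 0.32 and 0.27, so the numbers were not taken to pair animals, and control 4-5 was given the number 4. With the replicate block, 0 genes and 0 members were called and the median of the members was -0.10. Without a filter on low values 0 genes were called, and the 9 members under the filter could then be fitted. Depth limits Il1b, Tnf and Il6, which rest on a mean of 5.91, 2.27 and 1.55 reads per library.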
